A study of Mus musculus with 12 samples.

Results

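Growing mouse oocytes store many messenger RNAs without translating them, and 9 genes whose products carry out this storage and repression were followed here. They are Ybx2, Zar1, Zar1l, Cpeb1, Patl2, Lsm14b, Ddx6, Eif4enif1 and Eif4e1b. The rule that chose them names them for the known functions of their proteins and uses no value, but it was written with earlier results of these data known. All 9 were among the 25162 genes of the table, and all 9 averaged 1 FPKM or more over the columns, as did 10110 genes, called the genes compared. FPKM counts fragments per length of transcript and per size of library, so levels can be set side by side between genes. This holds only as far as the lengths used, which the sources here do not give, match the transcripts of the oocyte. None of the 9 was listed at 0 in any column.

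The study measured polyadenylated RNA by Smart-seq2 in oocytes at the stages NGO, GO and FGO, abbreviations that the labels do not spell out and that in this field commonly mean non-growing, growing and fully grown oocytes. The control, WT in the labels, carries the floxed gene and has the table heading Rnaseh1 fl/fl. The other genotype, KO in the labels and oo-/- in the table, is the deletion in oocytes of Rnaseh1, the gene of RNase H1, a nuclease that removes the RNA strand of RNA-DNA hybrids. Each of the 12 samples in the labels held 10 oocytes and 100 pg of ERCC spike-in RNA, with 2 samples per genotype and stage. The sources used here do not name the Cre driver, the deleted part of the gene, or the age and strain of the animals.

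The values used came in 6 columns, 1 for each genotype and stage, in FPKM after an adjustment by the authors to the spike-in. Whether a column is a mean, a pool or 1 of the 2 samples is not stated, so no difference below has a replicate check, and no test, SD or p-value is given. Differences are on the log2(FPKM + 1) scale, which understates the change of weakly expressed genes. A gene is called higher or lower at a difference of 1 or more, which is 2-fold. Spike-in adjusted levels carry the RNA content of the whole oocyte, and fewer oocytes in a sample and less RNA per oocyte cannot be told apart. Each difference is therefore also given after median-ratio scaling, here called rescaled, which removes a shift common to the genes of a column, taken as the median over genes of their ratio to their own geometric mean. The KO to WT differences at a stage and the steps between stages use the same columns and are not independent.

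Rnaseh1 itself was at 8.61, 27.8 and 29.1 FPKM in WT and at 0.931, 3.10 and 8.02 FPKM in KO at NGO, GO and FGO, which is 10.8%, 11.2% and 27.6% of WT. These percentages are as deposited, and the one at FGO includes the upward shift of all genes there, a median difference of 0.72. All 10 oocyte markers were at 15.4 FPKM or more in every column. The 14 granulosa cell markers summed to 3.22, 10.4 and 15.6 FPKM in WT and to 6.29, 5.55 and 42.6 FPKM in KO. At FGO, 4 of them in WT and 7 in KO reached 1 FPKM. Of the 5 compared, 2 were called higher in KO there on both scales, Inha and Gja1. Over all genes 26.0% were called at FGO in either direction as deposited, and 2.62% rescaled. Inha and Gja1 reach the mean of 1 FPKM needed to be compared only through their KO column at FGO. Their count is therefore partly set by the filter. Inha went from 1.17 FPKM in WT to 9.32 FPKM in KO and Gja1 from 0.965 to 6.96 FPKM, rescaled differences of 1.44 and 1.23, while Foxl2 was at 0.0130 FPKM in WT and was listed at 0 in KO. The 12 markers of theca, stroma, endothelium and blood summed to 1.73 to 17.8 FPKM over the 6 columns. The part of these other cells in the KO to WT differences at FGO was not tested. Over all genes compared, the median difference of KO from WT was -0.11, -0.09 and 0.72 at NGO, GO and FGO, and 0.01, -0.03 and 0.02 rescaled.

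As background, an oocyte makes its mRNA while it grows and then stops transcription, so that maturation and the first cleavages run on stored transcripts. Storage rests on proteins that coat mRNA, on proteins that keep the poly(A) tail short, and on proteins that hold the cap away from the translation machinery. YBX2 is a Y-box protein that coats and stabilises maternal mRNA. ZAR1 and its relative ZAR1L are zinc-finger proteins that bind maternal mRNA and hold back its translation. CPEB1 binds the cytoplasmic polyadenylation element and represses its targets until meiosis resumes, when it helps to lengthen their tails. EIF4ENIF1, also called 4E-T, binds the cap-binding protein eIF4E and blocks its partner eIF4G, and EIF4E1B is a germ cell form of eIF4E. PATL2, LSM14B and DDX6 belong to families found in repressed mRNA-protein particles. DDX6 is an RNA helicase, LSM14 proteins bind it, and some proteins of the PAT1 family, to which PATL2 belongs, link it to decapping or repression.

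The CPEB1 binding element is shown first because it is the sequence that the control of stored mRNA by this set is best known to read. It was searched as TTTTAT or TTTTAAT on the transcript strand of the last 100 bases of each gene's annotated transcript (GENCODE M21, GRCm38). Of the 8 members with a 3' UTR at least that long, only Ybx2 held it, against 20.4% of the 9079 genes compared that have such a UTR. Of 13 dormant maternal mRNAs listed as known or likely stored messages, 5 held it, namely Plat, Btg4, Cnot7, Orc6 and Dcp1a. The sites below are 30 bases long with the element in capitals, and the Cnot7 site also has the AATAAA polyadenylation signal in capitals. The sites of Orc6 and a second site of Dcp1a are not printed. They lie in the 3' end of Ybx2 at chr11:69941542-69941571 on the plus strand, Plat at chr8:22782754-22782783 plus, Btg4 at chr9:51119807-51119836 plus, Cnot7 at chr8:40493036-40493065 minus and Dcp1a at chr14:30526995-30527024 plus.
Ybx2: caTTTTATgaactgtcatgtgccacctgag
Plat: taTTTTAATctattttagtttttactttgt
Btg4: ctTTTTATgtctttttaaaagtttgattta
Cnot7: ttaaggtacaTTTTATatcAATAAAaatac
Dcp1a: aaTTTTATatgtttgcaaatatattttttt
A match shows only that the letters are present in the annotated 3' end. The oocyte may use another end, and an element farther upstream is outside the window. AATAAA or ATTAAA lay in the same window of 7 of the 8 members and of 81.7% of the genes with a long enough UTR. The member without this signal was Ybx2, the one that held the element. The window of Btg4 also held no such signal.

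The 9 genes differ in size and in the length of their 3' UTR. Ddx6 has the longest transcript, 6029 bases with a UTR of 4250, and Zar1l the shortest, 895 bases with a UTR of 14. The medians of the genes compared are 2860 bases and 929 bases. Zar1 (chr5:72576806-72581254, minus strand, 4 exons) and Zar1l (chr5:150507055-150518164, minus strand, 4 exons) encode proteins of 361 and 291 residues with 46% identity over aligned residues. Cpeb1 (chr7:81347026-81455465, minus, 12 exons) encodes 561 residues and Ybx2 (chr11:69935796-69941605, plus, 9 exons) 359. Eif4enif1 (chr11:3202392-3244588, plus, 19 exons) encodes the longest protein, 983 residues, and Eif4e1b (chr13:54783998-54788459, plus, 7 exons) the shortest, 244. Patl2 (chr2:122120108-122186189, minus, 18 exons), Lsm14b (chr2:180024987-180035465, plus, 9 exons) and Ddx6 (chr9:44604892-44640731, plus, 14 exons) encode 529, 385 and 483 residues. No exon of the 9 overlaps an exon of another gene. Zar1 has a near-identical copy, the pseudogene Gm15847 (chr5:73013528-73017236), which the table does not list, so reads could have been shared between them and the Zar1 level is uncertain to that extent.

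Zar1 had the highest level of the set in every column. It was at 445, 1064 and 949.8 FPKM in WT and at 348, 1019 and 1697 FPKM in KO at NGO, GO and FGO. These values lay between the 99.3 and 99.7 percentiles of the genes compared. The WT and KO columns were close at GO, and at FGO the KO column was the higher. The difference of KO from WT was -0.35, -0.06 and 0.84, and rescaled it was -0.17, 0.01 and 0.05. The FGO difference of Zar1 thus lay near the median of all genes on both scales.

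Zar1l was higher at each later stage in both genotypes, as deposited and rescaled. It was at 19.8, 111 and 208 FPKM in WT and at 12.0, 61.4 and 283 FPKM in KO. Its highest column was 23.6 times its lowest as deposited, against 2.23 to 7.06 times for the other 8 members, and 6.01 times after rescaling, where Patl2 spanned 7.49 times. KO differed from WT by -0.68 and -0.85 at NGO and GO, and by 0.44 at FGO. Rescaled, the differences were -0.53, -0.77 and -0.34, below WT at every stage and short of 2-fold at each.

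Ybx2 had its highest level at GO in WT as deposited, and at NGO, with 162 FPKM, after rescaling. It was at 83.5, 134.7 and 90.7 FPKM in WT and at 60.3, 81.8 and 91.5 FPKM in KO. KO lay below WT at NGO and GO and level with it at FGO, a stage at which most genes were listed higher in KO. Its difference from WT was -0.46, -0.71 and 0.01, and -0.28, -0.64 and -0.76 rescaled. Ybx2 went from the 97.3 percentile of levels at NGO to the 90.4 at FGO in WT, and from the 97.0 to the 84.5 in KO.

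Cpeb1 was the second most abundant of the 9 in every column. It was at 149.6, 326 and 338 FPKM in WT and at 127.7, 306 and 450.3 FPKM in KO. Its percentile stayed between 97.5 and 98.9. KO differed from WT by -0.23, -0.09 and 0.41, and by -0.05, -0.02 and -0.37 rescaled, so the FGO value changed sign with the scale. No Cpeb1 difference between genotypes reached 2-fold.

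Eif4enif1 was higher in KO at the 2 later stages. It was at 54.3, 117.7 and 145 FPKM in WT and at 51.7, 212 and 365 FPKM in KO. The columns were nearly level at NGO, and KO was 1.80 times WT at GO and 2.52 times at FGO. The difference of 1.33 at FGO was called, and the 0.84 at GO fell short of 2-fold. Rescaled, the differences were 0.11, 0.92 and 0.54, with ratios of 1.90 at GO and 1.46 at FGO, and none was called. The gene lies within the span of Drg1, which was at 30.7 FPKM in WT and 34.8 FPKM in KO at GO, and at 32.5 and 75.6 FPKM at FGO; their exons do not overlap.

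Eif4e1b was weakly expressed and was higher in KO at each stage as deposited, and at NGO and GO but not FGO after rescaling. It was at 5.08, 6.23 and 7.20 FPKM in WT and at 6.74, 11.7 and 9.93 FPKM in KO. The differences of 0.35, 0.81 and 0.42 became 0.54, 0.85 and -0.27 after rescaling. The GO column of KO was 1.87 times WT, 1.97 times rescaled, which is short of 2-fold. At NGO and GO its rescaled difference ranked 242 and 245 from the highest of 10110 genes.

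Patl2 showed the largest KO to WT difference of the 9 at FGO on both scales. It was at 53.7, 125 and 24.0 FPKM in WT and at 34.9, 168 and 125.6 FPKM in KO. In WT the FGO column was the lowest of the 3. In KO it lay between the NGO and GO columns as deposited, and was the lowest after rescaling, at 77.0, 137 and 55.6 FPKM. KO differed from WT by -0.61 at NGO, then by 0.42 and 2.34 at GO and FGO. At FGO the KO column was 5.24 times WT, and 3.03 times after rescaling, where the differences were -0.44, 0.50 and 1.55. The rescaled FGO difference ranked 18 from the highest of the 10110 genes. Patl2's span on the opposite strand holds B2m, at 20.2 FPKM in WT and 30.6 FPKM in KO at FGO, and Trim69, listed at 0 in all 6 columns, and neither shares an exon with it.

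Lsm14b was the member furthest below WT at GO and FGO. At NGO Zar1l, Patl2 and Ybx2 lay further below on both scales, as did Zar1 as deposited and Ddx6 rescaled. Lsm14b was at 3.82, 9.21 and 11.3 FPKM in WT and at 2.90, 4.21 and 7.50 FPKM in KO, lower in KO at every stage. The differences were -0.30, -0.97 and -0.53, and -0.19, -0.88 and -1.16 rescaled. The KO column was 0.457 of WT at GO and 0.663 at FGO, or 0.481 and 0.384 rescaled. Only the rescaled FGO difference was called, and it ranked 46 from the lowest of all genes compared. The GO ratio passes 2-fold while the log2 difference stays short of 1, because the pseudocount of 1 weighs on low values.

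Ddx6 had the lowest level of the 9 in every column. It was at 2.06, 5.78 and 1.49 FPKM in WT and at 1.51, 3.10 and 2.27 FPKM in KO. The GO column was the highest in both genotypes as deposited and in WT after rescaling, whereas rescaled KO had its highest at NGO, with 3.33 FPKM against 2.54 and 1.01 FPKM. KO differed from WT by -0.29, -0.72 and 0.39, and by -0.21, -0.63 and -0.10 rescaled, none of which was called. Its percentile among the genes compared was 36.7 in WT and 23.3 in KO at GO, and 11.8 and 6.27 at FGO.

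**Figure D1:**
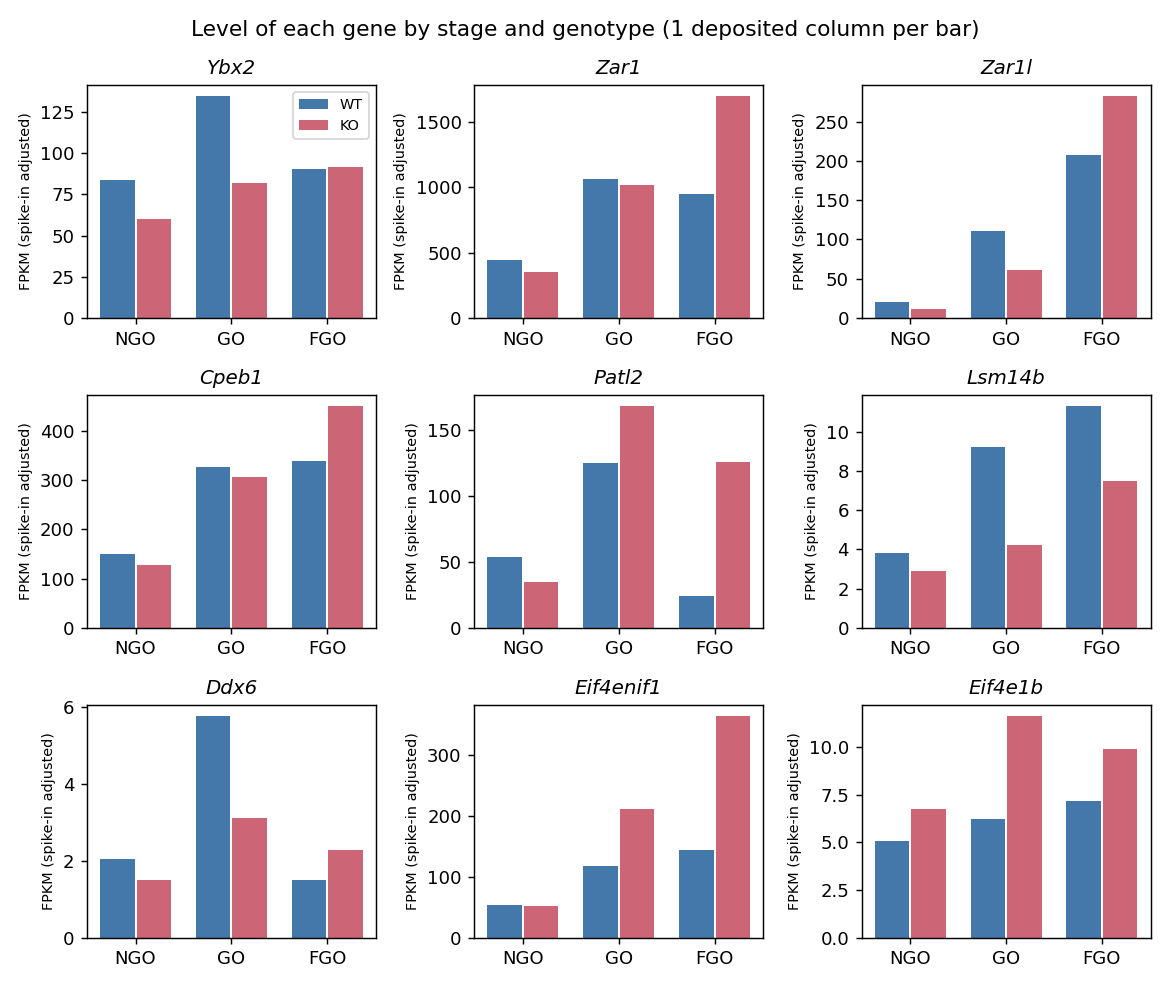
Spike-in adjusted FPKM of each of the 9 genes at NGO, GO and FGO in WT (blue) and KO (red), on a linear axis that starts at 0 and differs between panels; each bar is 1 deposited column, so there are no error bars. Patl2 drops to 24.0 FPKM at FGO in WT against 125.6 FPKM in KO, and Lsm14b is lower in KO at all 3 stages.

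The order of the levels changed in part with genotype, and at FGO only Zar1, Cpeb1 and Ddx6 kept their place. At FGO in WT it ran Zar1, Cpeb1, Zar1l, Eif4enif1, Ybx2, Patl2, Lsm14b, Eif4e1b and Ddx6. In KO, Eif4enif1 stood above Zar1l, Patl2 above Ybx2 and Eif4e1b above Lsm14b, with the other places kept. Without replicates it is not known which neighbours in this order differ beyond their spread.

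As deposited, 0 of the 9 members were called between KO and WT at NGO, where 0.356% of all genes were called in either direction. At GO it was 0 of 9 against 2.98%. At FGO 2 of 9 were called, Patl2 and Eif4enif1, both higher, against 26.0%. After rescaling the counts were 0 of 9 at NGO against 0.485%, 0 of 9 at GO against 2.32% and 2 of 9 at FGO against 2.62%. Those 2 were Patl2, higher in KO, and Lsm14b, lower. At NGO 8 of 9 members lay below WT, and 7 of 9 rescaled, where the median of all genes was -0.11 and 0.01. At FGO 8 of 9 lay above WT as deposited, where the median of all genes was 0.72, and 3 of 9 rescaled. Set against the median gene, 7 of 9 lay below it at NGO and 6 of 9 at FGO, on both scales. The median of the 9 was -0.30, -0.09 and 0.42 at the 3 stages, and -0.19, -0.02 and -0.27 rescaled.

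**Figure D2:**
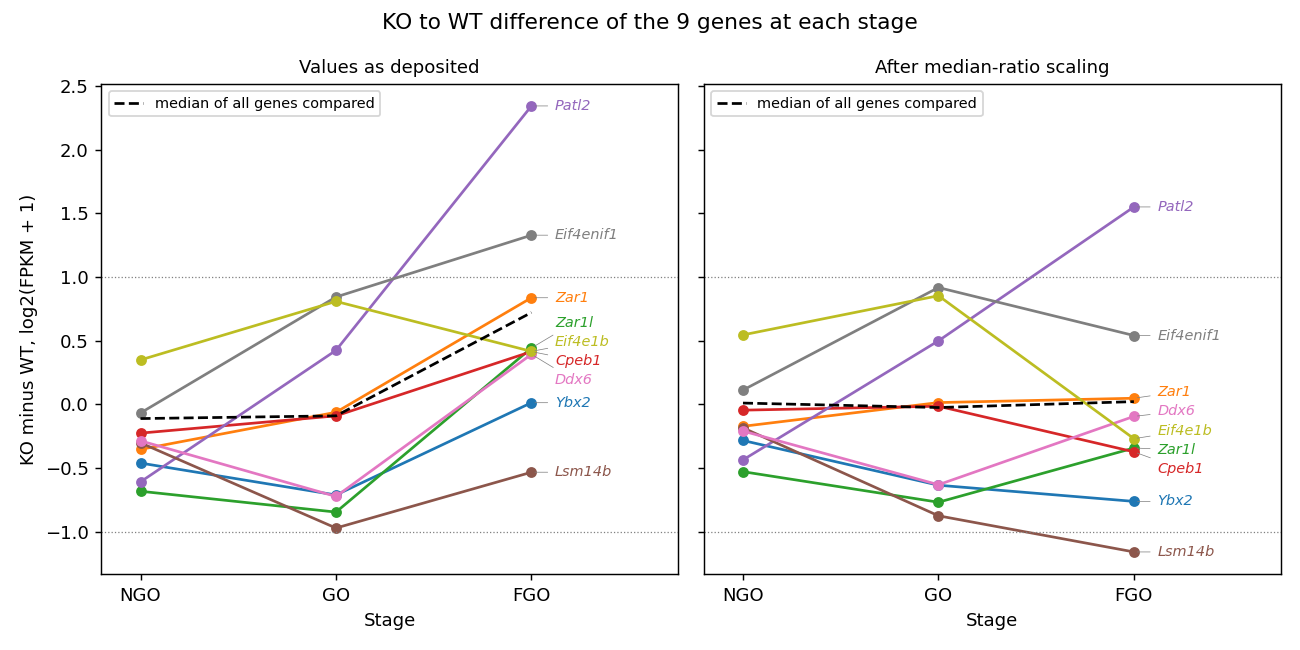
KO minus WT difference in log2(FPKM + 1) for each of the 9 genes at NGO, GO and FGO, as deposited (left) and after median-ratio scaling (right); the dashed line is the median of all 10110 genes compared and the dotted lines mark 2-fold. At FGO Patl2 lies at 2.34 and 1.55, above the upper dotted line on both scales, and Lsm14b at -0.53 and -1.16.

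Because Patl2 and Lsm14b were the members called in opposite directions at FGO after rescaling, their promoters are shown, from 250 bases before to 50 bases after the annotated start (RefSeq, GRCm38.p6). Capitals mark E-boxes, CANNTG, the core read by many helix-loop-helix factors such as FIGLA of the oocyte, whose reverse complement has the same form, so that 1 search covers both strands. The Patl2 window is chr2:122186140-122186439 on the minus strand with 60.7% G and C, and the Lsm14b window is chr2:180024737-180025036 on the plus strand with 74.3%.
Patl2: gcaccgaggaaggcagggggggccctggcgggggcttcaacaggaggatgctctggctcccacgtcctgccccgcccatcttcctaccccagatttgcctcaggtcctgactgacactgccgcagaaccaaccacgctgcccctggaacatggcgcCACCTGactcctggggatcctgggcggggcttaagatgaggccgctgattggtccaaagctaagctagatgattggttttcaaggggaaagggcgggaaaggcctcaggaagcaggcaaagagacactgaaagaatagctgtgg
Lsm14b: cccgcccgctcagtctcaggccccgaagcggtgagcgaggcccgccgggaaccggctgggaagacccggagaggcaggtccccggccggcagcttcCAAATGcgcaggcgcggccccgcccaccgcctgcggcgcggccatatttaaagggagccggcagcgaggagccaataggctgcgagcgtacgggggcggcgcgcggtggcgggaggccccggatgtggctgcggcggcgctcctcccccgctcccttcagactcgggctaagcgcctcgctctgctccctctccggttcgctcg
Each holds 1 E-box. All 7 members with a promoter entry held at least 1, and Zar1, Zar1l and Cpeb1 held 2. An E-box is common in windows of this length: 72.1% of the 27025 promoters in the table held one, with a median of 1. The match is a description of the sequence and not a binding site.

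From NGO to GO in WT 7 of 9 members were called higher, against 54.9% of all genes called in either direction. Zar1l led with a step of 2.43, followed by Zar1 at 1.25 and Patl2 at 1.20, while Ybx2 at 0.68 and Eif4e1b at 0.25 were not called. After rescaling 1 of 9 was called, Zar1l at 1.14, against 9.34%. The rescaled median of the 9 was -0.11, and the remaining members lay between -0.90 (Eif4e1b) and 0.13 (Ddx6).

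In KO the same step called 5 of 9 members higher against 57.7% of all genes. These were Zar1l at 2.26, Patl2 at 2.24, Eif4enif1 at 2.01, Zar1 at 1.55 and Cpeb1 at 1.25. Lsm14b, called in WT at 1.08, stepped by 0.42 in KO. Rescaled, 0 of 9 were called against 7.96%, with Zar1l at 0.90 and Patl2 at 0.83 the highest and Ybx2 at -0.98 the lowest. The KO to WT difference of Patl2 shifted by 1.03 between NGO and GO, that of Eif4enif1 by 0.91 and that of Lsm14b by -0.67. Over all genes the median shift was 0.05.

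From GO to FGO in WT 2 of 9 members were called, Patl2 at -2.34 and Ddx6 at -1.44, both lower, against 15.7% of all genes. Both were also called after rescaling, at -2.34 and -1.36, where 14.1% of all genes were called, and Patl2 ranked 43 from the lowest. Zar1l came next to 2-fold upward, at 0.90, and Ybx2 lay at -0.57. Zar1, Cpeb1, Lsm14b, Eif4enif1 and Eif4e1b lay between -0.16 and 0.30.

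In KO the same step called 1 of 9 members higher, Zar1l at 2.19, against 39.5% of all genes, whose median step was 0.84. Patl2 moved by -0.42 and Ddx6 by -0.33, the members with the largest downward steps. After rescaling 2 of 9 were called against 10.1%, Zar1l higher at 1.30 and Patl2 lower at -1.29. Ddx6 was at -0.82 and Eif4e1b at -0.96. The rescaled KO to WT difference of Patl2 therefore shifted by 1.05 from GO to FGO, rank 157 from the highest of all genes. That of Eif4e1b shifted by -1.12, rank 34 from the lowest. These shifts compare single columns and were not tested.

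**Figure D3:**
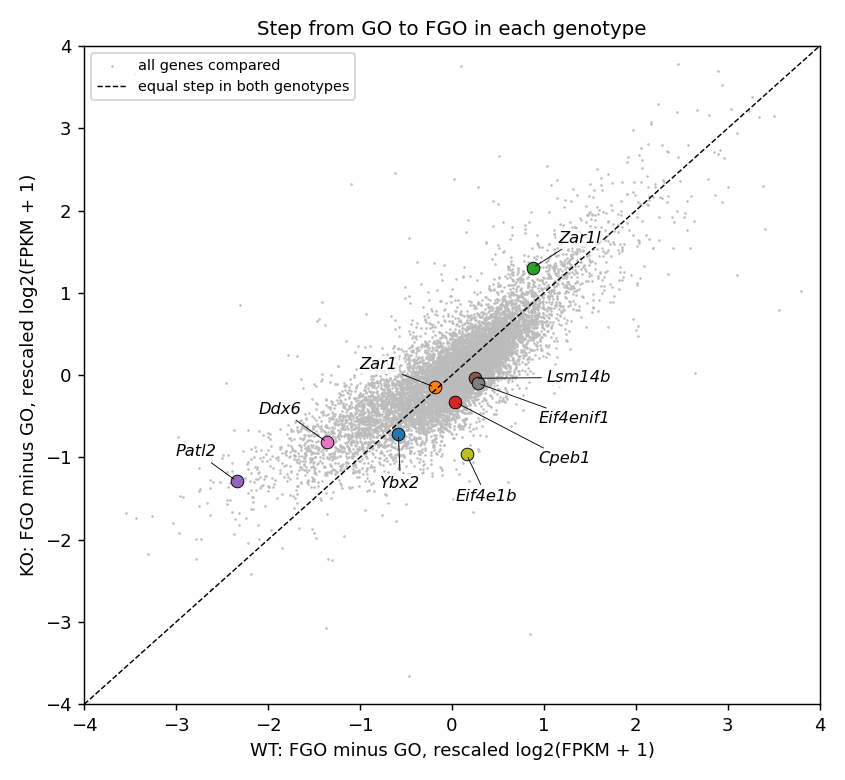
Step from GO to FGO in WT (horizontal) and in KO (vertical), both as rescaled differences in log2(FPKM + 1), for all genes compared (grey; 3 genes lie outside the axes) and the 9 genes (coloured). Patl2 and Ddx6 lie above the dashed line of equal steps, at -2.34 and -1.36 in WT against -1.29 and -0.82 in KO, and Eif4e1b lies below it, at 0.16 in WT and -0.96 in KO.

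The genes whose profile over the 6 columns came closest to each member were taken from about 4600 genes that averaged 10 FPKM or more. Likeness is the root mean square difference between log2(FPKM + 1) profiles as deposited, each centred on its own mean. Shifts shared by most genes of a column are part of these profiles. The median distance of the candidates ran from 0.33 for Zar1 and 0.35 for Cpeb1 to 1.02 for Patl2. Zar1 was closest to Pigq at 0.035 and Cep78 at 0.049, Cpeb1 to Slc16a10 at 0.051 and Supt6 at 0.061, and Eif4enif1 to Epb41l5 at 0.054 and Spats2 at 0.076. Zar1l was closest to Lef1 at 0.073 and to Tcl1b3, a member of an oocyte gene cluster, at 0.0997. The nearest genes of the other 5 were farther away. Lsm14b was nearest to Tsc22d4 at 0.13 and to the Y-box gene Ybx3 at 0.16, Ddx6 to Srsf9 at 0.14 and Fbxw8 at 0.15, Eif4e1b to Zcchc7 at 0.15 and Vps8 at 0.15, and Ybx2 to the chaperone gene Hsp90aa1 at 0.16 and to Furin at 0.16. Patl2 was nearest to Ddx4, the germ cell RNA helicase VASA, at 0.21 and to Adora2b at 0.23. Ddx4 was at 15.4 FPKM in WT and 80.1 FPKM in KO at FGO. Among the 36 pairs of members, Zar1 and Cpeb1 were closest at 0.16 and Zar1l and Patl2 farthest apart at 1.68.

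Partners of these proteins were taken from 3 lists. Of 20 genes of the CPEB and cytoplasmic polyadenylation machinery, 18 were compared. In KO 0 were called at NGO and GO, and 3 were called higher at FGO as deposited, Cpsf3, Pabpc1 and Pabpc1l, where 26.0% of all genes were called. After rescaling 0 were called at any stage, with medians of 0.02, 0.13 and 0.05. The poly(A) polymerase gene Tent2 was at 12.1 FPKM in WT and 18.0 FPKM in KO at GO, a rescaled difference of 0.60. Pabpc1l, the poly(A)-binding protein of oocytes, differed by 0.59 there. Pum2, an RNA-binding repressor, was lower, at 40.7 FPKM in WT and 21.9 FPKM in KO at GO, or -0.79 rescaled, and -0.67 at FGO. At NGO the values furthest from 0 were Pabpn1l at -0.55, Cpsf2 at 0.54 and Sympk at -0.45. The Cpeb1 relatives Cpeb2, Cpeb3 and Cpeb4 all lay below WT on the rescaled scale at each stage, between -0.12 and -0.61.

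Of 25 cap, Y-box and P-body partners, 22 were compared. As deposited 0, 1 and 6 were called at the 3 stages, the 1 at GO lower and the 6 at FGO higher, beside 0.356%, 2.98% and 26.0% of all genes. Rescaled, 0, 1 and 1 were called, beside 0.485%, 2.32% and 2.62% of all genes, and both calls were Ybx3, a paralogue of Ybx2. Ybx3 was at 104, 297 and 299 FPKM in WT and at 78.5, 120.2 and 192 FPKM in KO, with rescaled differences of -0.22, -1.22 and -1.42. The list's rescaled medians were 0.00, 0.09 and -0.02, near those of all genes. Among other relatives of the members, Lsm14a had rescaled differences of 0.00, -0.26 and -0.51, against -0.19, -0.88 and -1.16 for Lsm14b. Patl1 was at 4.90 FPKM in WT and 7.23 FPKM in KO at FGO, a rescaled difference of -0.18 against 1.55 for Patl2. Ybx1 was lower by -0.62 rescaled at NGO, and Eif4e differed by 0.16, 0.30 and 0.14. Rescaled differences of Eif4e2 were -0.39, -0.21 and -0.03. Eif4e3 was at 206 FPKM in WT and 124 FPKM in KO at GO, or -0.65 rescaled, and Stau2, a double-stranded RNA-binding protein gene, was at 0.75.

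Of the 13 dormant maternal mRNAs all were compared; Dcp1a, Dcp2 and Dazl are also on the other lists. In KO against WT 0, 0 and 2 were called as deposited, both higher at FGO, where 26.0% of all genes were called, and 0 were called at any stage after rescaling, with medians of -0.20, 0.03 and -0.14. Those 2 were Plat, the gene of tissue plasminogen activator, and Ccnb1, the gene of cyclin B1. Plat was at 103, 292 and 384 FPKM in WT and at 85.7, 476 and 981 FPKM in KO, with rescaled differences of 0.78 at GO and 0.56 at FGO. Ccnb1 was at 532 FPKM in WT and 1076 FPKM in KO at FGO, 0.23 rescaled. Btg4, an adaptor of maternal mRNA decay, was at 3407 FPKM in WT and 3799 FPKM in KO at FGO, and its rescaled difference was -0.63. Cnot6l, a deadenylase gene, lay at -0.60 at GO and -0.76 at FGO. At NGO the rescaled values furthest from 0 were Il7 at -0.46, Mos at -0.34 and Slbp at -0.33. Over growth, 12 of the 13 were called higher from NGO to GO in WT and 12 in KO, beside 54.9% and 57.7% of all genes. After rescaling 0 and 3 were called, beside 9.34% and 7.96%. From GO to FGO 1 was called in WT, beside 15.7% of all genes, the deadenylase gene Cnot7, which went from 37.3 to 108 FPKM. In KO 11 were called in that step, beside 39.5% of all genes, and 1 after rescaling, beside 10.1%.

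**Figure D4:**
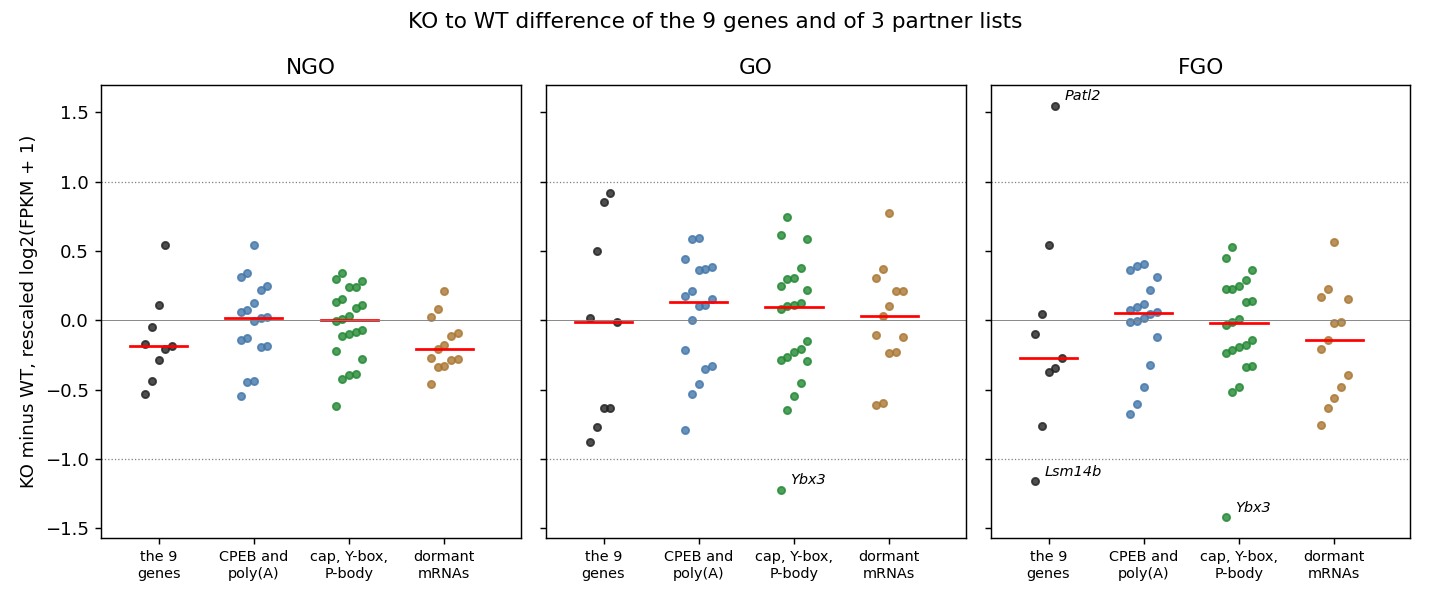
Rescaled KO minus WT difference in log2(FPKM + 1) at NGO, GO and FGO for the 9 genes and the compared genes of 3 partner lists; each point is 1 gene, red lines are medians and dotted lines mark 2-fold. Patl2 at 1.55, Lsm14b at -1.16 and Ybx3 at -1.22 and -1.42 are the points beyond the dotted lines.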

How the data were processed

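Per the labels, libraries were made with Smart-seq2, which primes on the poly(A) tail with oligo-dT, from 500 pg of cDNA and read as 150 bp pairs. Tail length was not measured, and its part in the FPKM differences between columns was not tested. Per the submitters' processing notes, HISAT2 2.2.1, Trim Galore 0.6.7 and Cufflinks 2.2.1 were used, with mm10. The deposited values are spike-in adjusted FPKM, going by the name the authors gave the table. The sources used here give neither the formula nor the annotation, and read depth is unknown.

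Of 25912 lines, 2 with missing values were left out, and 333 repeated symbols were represented by their most abundant line. All 9 members had 1 line. A linear model over replicates had been planned and could not be fitted, since each group has 1 column. Differences used log2(FPKM + 1), genes averaging 1 FPKM or more, and a 2-fold call. For rescaling, the WT columns were divided by 0.514, 1.29 and 1.31 and the KO columns by 0.453, 1.22 and 2.26, their median ratios to the geometric mean over columns.

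Named were all members and their closest paralogues, and of each partner list the genes called after rescaling or those furthest from 0 at each stage. The 2 nearest profiles per member and Rnaseh1 completed the names. Ccnb1, Cnot7, Cpsf3, Pabpc1, Drg1, B2m and Trim69 were added after their values were seen. Inha, Gja1, Foxl2 and Stau2 are also named outside these rules. Members and lists were chosen with earlier results of these data known. Only the median-ratio scaling and the 2-fold call of KO against WT at FGO were tested on simulated data. The genes changed there averaged 10 FPKM or more, so changes in more weakly expressed genes were not covered. Copies were sought with blastn 2.17.0 at 95% identity over at least 50% of the transcript. Software was Python 3.11.15, numpy 2.4.6, pandas 2.3.3, matplotlib 3.10.9 and biopython 1.88. Tried besides were both scalings (median ratio and equal totals), a 1.5-fold call, the sum over lines, a filter at 5 FPKM or none, and a pseudocount of 0.1.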

Additional observations from a re-analysis of the deposited data

How the results depend on the processing

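No paired analysis was possible because each group has 1 column and the columns carry no replicate numbers, and leaving out a replicate could not be done for the same reason. A fit of genotype with the 3 stages as blocks was not run. Of the 63 differences of the 9 genes, 0 changed without a filter or with the sum over lines. With a 1.5-fold call, members called between KO and WT went from 0 to 2 at NGO, beside 4.41% of all genes. At GO they went from 0 to 6, beside 19.1%. With a pseudocount of 0.1 they went from 0 to 1 at GO (Lsm14b), beside 6.63%. From NGO to GO the calls went from 7 to 1 in WT and from 5 to 0 in KO under both the median-ratio scaling and equal column totals. Of all genes, 9.34% (median-ratio) and 10.2% (equal totals) were called in WT, and 7.96% (median-ratio) in KO. From GO to FGO in WT the calls went from 2 to 1 at a mean of at least 5, beside 12.0% of all genes, where Ddx6 was not compared. In KO they went from 1 to 2 (median-ratio, beside 10.1% of all genes), 3 (equal totals) and 4 (1.5-fold). For equal totals and 1.5-fold the counts over all 10110 genes are given below. From NGO to GO in WT all 9 members were higher as deposited, and 7 were lower under both scalings. Of the 7 called, 5 changed sign, to -0.071 and -0.037 for Zar1, -0.20 and -0.17 for Cpeb1, -0.11 and -0.074 for Patl2, -0.049 and -0.019 for Lsm14b, and -0.21 and -0.18 for Eif4enif1. Of those not called, Ybx2 went to -0.63 and -0.60 and Eif4e1b to -0.90 and -0.89. In KO all 9 were higher as deposited and 5 were lower under both scalings, the called Cpeb1 at -0.17 under both, and Ybx2, Lsm14b, Ddx6 and Eif4e1b, which were not called. Both scalings remove the shift common to all genes.

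Over all genes the calls moved further. At NGO the 36 calls became 64 with equal totals, 272 with a pseudocount of 0.1 and 446 at 1.5-fold. At GO 301 became 670 with a pseudocount of 0.1 and 1927 at 1.5-fold. At FGO 2628 became 265 with the median-ratio scaling, 321 with equal totals and 6380 at 1.5-fold, and the split of 2612 higher and 16 lower became 170 and 95. The split was 3 and 33 at NGO against 13 and 36 rescaled, and 96 and 205 at GO against 106 and 129. From NGO to GO the 5553 calls in WT became 944, 1033 and 8380 under the same 3 settings, and the 5831 in KO became 805 and 906 under the scalings. From GO to FGO 1589 in WT became 789 at a mean of at least 5 and 3657 at 1.5-fold, and 3998 in KO became 1019, 1195 and 6857. With 1 column per group and unknown depth, neither replicate spread nor counting error can be given, least of all for Ddx6, Lsm14b and Eif4e1b at a few FPKM.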

Other observations

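Shares within a gene family do not depend on the scaling of a column, since every relative is divided by the same factor. They were computed after the values of the members had been seen. Patl2 made up 95.8%, 95.4% and 83.0% of the summed FPKM of Patl1 and Patl2 in WT at NGO, GO and FGO, and 93.2%, 97.1% and 94.6% in KO. Lsm14b made up 16.7%, 13.8% and 11.03% of the LSM14 pair in WT and 14.8%, 8.53% and 6.40% in KO. The share of Zar1l in the ZAR pair went from 4.27% to 9.46% and 18.0% in WT and from 3.33% to 5.68% and 14.3% in KO.

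Ybx2 made up 35.6%, 24.4% and 18.4% of the 3 Y-box genes in WT and 36.4%, 27.8% and 20.97% in KO. Its share was thus higher in KO at each stage although its rescaled level was lower. Among its relatives the rescaled differences were -0.62, -0.29 and -0.21 for Ybx1 and -0.22, -1.22 and -1.42 for Ybx3, against -0.28, -0.64 and -0.76 for Ybx2. Eif4e1b held 6.01%, 2.23% and 2.18% of the 4 eIF4E genes in WT and 10.3%, 5.65% and 2.01% in KO. Cpeb1 held between 94.5% and 96.2% of the 4 CPEB genes in every column. No share has a replicate check.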
